A study of Mus musculus with 2 samples.

Results

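The hnRNP, SR and snRNP protein genes encode abundant parts of the splicing machinery. Members were taken by symbol: protein-coding mouse genes whose symbol begins with Hnrnp, with Srsf and a digit, or with Snrp, other than Snrpn. They had to be listed in both the gene tables and the transcript tables. The rule gave 42 of 21474 protein-coding genes in the tables, namely 20 hnRNP genes, 11 SR genes and 11 snRNP genes. The rule uses no measured value, although the members were proposed with earlier results of these data known. RNA came from the forebrain of newborn B6NCrl mice at postnatal day 0, without any treatment named in the labels, and each library was made from 13 pg, or 1 cell-equivalent, of RNA longer than 200 nt. The catalogue calls the assay single-cell sequencing, but whole forebrain tissue from one pup was the source of each library, so a mixture of cell types was measured. There were 2 libraries in 1 group, from pup 1 (replicate 1) and pup 3 (replicate 2), which the labels describe as separate pups under the same donor identifier. The design holds no contrast and 1 library per pup, so no test was made and every difference below is a description in which animal and technical spread cannot be told apart.

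Splicing removes introns in the spliceosome, whose small nuclear ribonucleoproteins each hold a short RNA, a ring of Sm proteins and particle-specific proteins. SR proteins bind exonic sequences through RNA recognition motifs and favour the use of nearby splice sites through domains rich in arginine and serine. hnRNP proteins coat nascent transcripts, often repress splice sites, and act in transport, translation and decay of mRNA. Many genes of these classes produce transcripts with retained introns or premature stop codons, and for several SR and hnRNP proteins such transcripts are known to be part of how the protein limits its own level. Developing brain is a tissue with extensive alternative splicing.

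Sequences of 7 non-coding or decay transcripts that reached 10 TPM in a pup are shown. The letters show what set each apart from the coding mRNAs of its gene. They are from GENCODE M21 transcripts on mm10, written 5′ to 3′ in the sense of the transcript. For the first 5, capitals mark private bases, meaning exonic bases that no protein-coding transcript of the gene contains. In Hnrnpl-210 (chr7:28821244-28821421, plus strand), a retained-intron transcript, the private run of 118 bases began with GT and ended with AG, the usual ends of an intron. In Hnrnpk-217 (chr13:58393745-58393868, minus strand) the run of 78 bases had the same ends. Hnrnpk-215 (chr13:58395658-58395720, minus strand) began with 33 private bases that ended in AG. The printed stretches of Hnrnph1-218 (chr11:50383710-50384673, plus strand) and Srsf10-207 (chr4:135858380-135858871, plus strand) crossed an exon junction where the capitals end. Those spans therefore include introns that are not printed. The lower-case end of Srsf10-207 is also private and starts its next exon.
Hnrnpl-210: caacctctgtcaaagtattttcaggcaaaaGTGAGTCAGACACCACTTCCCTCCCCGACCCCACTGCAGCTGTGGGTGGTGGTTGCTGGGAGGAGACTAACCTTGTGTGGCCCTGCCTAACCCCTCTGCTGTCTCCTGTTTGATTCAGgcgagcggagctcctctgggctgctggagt
Hnrnpk-217: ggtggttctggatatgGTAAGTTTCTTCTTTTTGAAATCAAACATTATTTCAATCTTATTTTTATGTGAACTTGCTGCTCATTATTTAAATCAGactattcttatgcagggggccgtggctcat
Hnrnpk-215: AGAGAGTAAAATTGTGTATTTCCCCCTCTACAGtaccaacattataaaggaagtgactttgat
Hnrnph1-218: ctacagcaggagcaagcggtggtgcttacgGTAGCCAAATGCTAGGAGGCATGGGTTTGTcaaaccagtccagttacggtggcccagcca
Srsf10-207: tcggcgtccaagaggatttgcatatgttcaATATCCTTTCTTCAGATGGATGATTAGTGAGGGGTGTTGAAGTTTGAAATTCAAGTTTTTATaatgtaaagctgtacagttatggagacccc

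The other 2 belong to transcripts annotated as targets of nonsense-mediated decay, the pathway that destroys mRNAs with a premature stop codon. In Snrpa1-201 (chr7:66069497-66070619, plus strand, intron not printed) capitals mark the 30 bases after a junction that no coding transcript of Snrpa1 has, and a TAA stop codon starts at base 4 of them. In Srsf3-201 (chr17:29038595-29039487, plus strand, intron not printed) capitals mark the annotated TGA stop codon, reached inside an exon that the coding transcript lacks. That extra exon was read from M21, in which Srsf3-201 is 2594 bases long against 1919 in the deposited tables.
Snrpa1-201: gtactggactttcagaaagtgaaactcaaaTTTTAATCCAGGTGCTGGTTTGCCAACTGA
Srsf3-201: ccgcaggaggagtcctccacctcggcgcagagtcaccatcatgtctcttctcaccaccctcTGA

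Most splicing factor genes were found in both pups. At a transcript level of 1 TPM or more (a level per length that sums to the same total in each library), 39 of 42 members were found in both, being 19 of 20 hnRNP, 10 of 11 SR and 10 of 11 snRNP genes. Over all protein-coding genes, 24.8% were found in both. Among genes at a mean of 10 TPM or more, 35 of 37 members (94.6%) were found in both pups, against 70.1% of all 7005 such genes. The 3 remaining members were found in pup 1 alone. Hnrnpul2, a relative of Hnrnpu, stood at 15.2 TPM in pup 1 against 0.350 in pup 3. Srsf12, a small SR-related protein, stood at 25.5 TPM in pup 1 from 1289 estimated reads, and no read was assigned to it in pup 3. Scaled by library total, it was at least 313-fold higher in pup 1, taking the floor of 3 reads in pup 3. Snrpa, the U1 snRNP protein that binds a stem-loop of U1 RNA, had 1662 reads in pup 1 and 1 read in pup 3. The ratio of its reads, scaled by library total, was 1209, with an exact 95% interval of 217 to 47775. Such floors and intervals cover counting error only, since these reads carry no molecular identifiers.

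The libraries held 41082811 and 29881397 estimated reads in pup 1 and pup 3, so a floor of 3 reads amounted to 0.0730 and 0.1004 CPM (reads scaled by library total). Members took 0.772% of all TPM in pup 1, against 0.610% in pup 3. Protein-coding genes found numbered 9061 in pup 1 and 6223 in pup 3, and spike-in RNA took 4.46% and 7.30% of TPM. All 6 forebrain and neuron markers examined were found in both pups and none of 4 hindbrain markers in either. Summed TPM of the forebrain and neuron markers was 8649.7 in pup 1 and 4228 in pup 3, but Tubb3 made nearly all of that gap, and the other 5 markers summed to 2375 and 2356. Summed TPM of 4 erythroid markers was 1531 and 3084, but Alas2 among them was lower in pup 3, at 27.1 and 17.5 TPM. Sums were 2888 and 3645 for 3 progenitor and astroglia markers, but Vim among them was lower in pup 3, at 379 and 173 TPM. Fabp7 was at 1337 and 2289.6 TPM and Apoe at 1172 and 1183 TPM. For 4 vascular and meningeal markers the sums were 156 and 198. Col3a1 among them was lower in pup 3, at 76.9 and 31.4 TPM, and the other 3 were higher there. Of 4 microglia markers, C1qa was at 76.2 and 0 TPM and Csf1r at 34.5 and 0 TPM. By contrast, C1qc was at 0 and 49.1 TPM, while C1qb was at 104 and 64.4 TPM. The choroid plexus marker Folr1 was at 85.3 and 0 TPM, beside Ttr at 1724 and 1898 TPM. The part of these shifts in the differences between pups given below was not tested, and fewer cells of a type cannot be told apart from less RNA per cell.

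By level, snRNP genes were highest, with a median over members of 143 TPM (mean of the 2 pups), followed by hnRNP genes at 104 TPM and SR genes at 54.6 TPM. In single pups the medians were 182 and 105 TPM for snRNP genes, 99.4 and 79.4 TPM for hnRNP genes and 72.2 and 60.6 TPM for SR genes, so the order of the classes was the same in both pups. Within each class levels spread widely, from 7.05 to 1159.7 TPM among hnRNP genes, 4.29 to 316 TPM among SR genes and 26.6 to 416 TPM among snRNP genes.

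**Figure D1:**
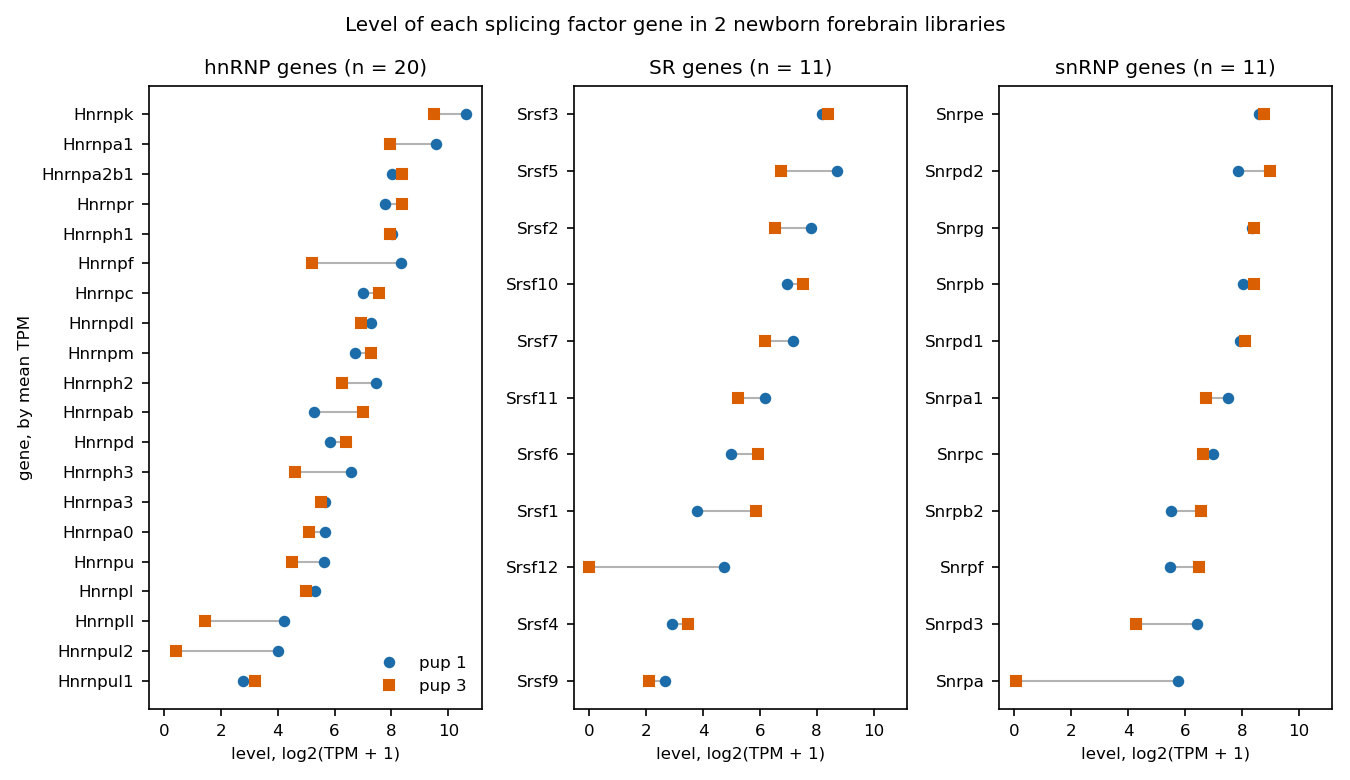
Level of each member as log2(TPM + 1) on the horizontal axis in pup 1 (blue circles) and pup 3 (orange squares), with genes of each class ordered by mean TPM and a grey line joining the 2 values. Hnrnpk is the highest gene, Snrpe, Snrpg and Snrpd1 lie close together in the 2 pups, and Snrpa, Srsf12 and Hnrnpul2 are at or near 0 in pup 3.

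Among hnRNP genes, Hnrnpk led in both pups, at 1592 TPM in pup 1 against 728 in pup 3 (1159.7 ± 611, SD, n = 2). It encodes a KH-domain protein that binds C-rich RNA and DNA and lies at chr13:58391142-58403343. Hnrnpa1, which binds UAG-containing sites and represses splicing near them, followed at 757 and 245 TPM (501 ± 362). Both genes were more than 2-fold higher in pup 1, with log2 ratios of pup 3 over pup 1 of -1.13 and -1.62 on the log2(TPM + 1) scale used throughout.

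The next 3 hnRNP genes differed less between pups. Hnrnpa2b1, a close relative of Hnrnpa1 that also takes part in RNA transport, stood at 257 and 327 TPM (292 ± 49.7). Hnrnpr, a relative of Syncrip found in motor axons, stood at 216 and 332 TPM (274 ± 82.2). Hnrnph1, which binds runs of G, stood at 258 and 249 TPM (254 ± 6.75) and was the closest between pups of the 5 highest. Its paralogue Hnrnpf, which binds similar G runs, was at 323 TPM in pup 1 against 36.1 in pup 3 (179 ± 203), a log2 ratio of -3.12. Hnrnph2 and Hnrnph3, of the same subfamily, were also lower in pup 3, at 75.5 against 176 TPM and at 23.2 against 95.3 TPM.

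Of 5 further hnRNP genes above 50 TPM on average, 1 was more than 2-fold apart. Hnrnpab was at 37.5 TPM in pup 1 against 126 in pup 3, a log2 ratio of 1.73. In M21, 29.1% of its exonic bases overlap exons of Phykpl on the opposite strand, and the strand setting of the counting is not given in the sources used here. Hnrnpd, also known as AUF1 and a binder of AU-rich elements, was at 55.8 and 83.3 TPM, although its log2 ratio turned from 0.57 on TPM to -0.14 on CPM scaled with TMM factors. Its paralogue Hnrnpdl was at 154 and 121 TPM. Hnrnpc, which binds U tracts, was at 128 and 189 TPM, and Hnrnpm, which binds GU-rich sites, at 103 and 155 TPM. For Hnrnpm, 17.5% of exonic bases are shared with March2 on the same strand.

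The lower hnRNP genes began with Hnrnpa3 at 49.2 and 44.9 TPM and Hnrnpa0 at 50.2 and 33.7 TPM. Reads gave another picture for Hnrnpa3, with 6290 in pup 1 and 2534 in pup 3. Its leading transcript was the 5150-base Hnrnpa3-203 in pup 1 and the 1074-base Hnrnpa3-207 in pup 3, and TPM divides reads by length. Hnrnpu, a nuclear scaffold protein, was at 48.7 and 21.7 TPM, but its coding transcripts were at 25.9 and 21.7 TPM. Its log2 ratio was -1.13 on TPM and -0.31 on CPM scaled with TMM factors. Hnrnpl, which binds CA repeats, was at 38.3 and 30.5 TPM. Hnrnpll, the paralogue of Hnrnpl, was at 17.8 and 1.72 TPM and Hnrnpul1 at 5.81 and 8.29 TPM.

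Among SR genes, Srsf3, the smallest canonical SR protein, had the highest mean, at 293 and 339 TPM (316 ± 32.5). Srsf5 stood at 424 TPM in pup 1 against 106 in pup 3 (265 ± 225), a log2 ratio of -1.99. Srsf2, also called SC35, stood at 220.4 and 91.2 TPM (156 ± 91.4), a log2 ratio of -1.26. Both were thus more than 2-fold higher in pup 1, whereas Srsf3 was not. For Srsf2, 15.6% of exonic bases overlap exons of Mettl23 on the opposite strand.

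Srsf10, which acts as a splicing repressor when dephosphorylated, was at 123 and 180.3 TPM (151 ± 40.8). Its reads ran the other way, 5659 in pup 1 against 2420 in pup 3, and the log2 ratio was 0.55 on TPM but -0.97 on CPM scaled with TMM factors. Srsf7, which carries a zinc knuckle, was at 143 and 71.6 TPM (107 ± 50.3). Srsf11 was at 72.2 and 36.9 TPM, but its coding transcripts were at 26.6 and 36.7 TPM. Srsf1, a canonical SR protein with roles in splicing and nuclear export, was the reverse of Srsf5. It stood at 12.7 TPM in pup 1 against 57.0 in pup 3, the largest log2 ratio toward pup 3 among members at a mean of 10 TPM or more (2.08). Srsf6 was at 30.4 and 60.6 TPM, Srsf4 at 6.51 and 10.2 TPM, and Srsf9 at 5.32 and 3.25 TPM. Of Srsf4 exonic bases, 43.0% overlap the non-coding gene Gm12992 on the opposite strand.

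The 7 Sm genes, whose proteins form the ring on each snRNA, did not stand at equal levels. Snrpe was at 390.0 and 441 TPM (416 ± 36.1), Snrpd2 at 230.0 and 509 TPM (369 ± 197) and Snrpg at 329 and 339.6 TPM (334 ± 7.83). Snrpb was at 263 and 346 TPM (305 ± 59.2) and Snrpd1 at 241 and 278 TPM (259.6 ± 25.7). These 5 were above 200 TPM in each pup, and only Snrpd2 among them was 2-fold apart, with a log2 ratio of 1.14. The other two Sm genes were lower in both pups. Snrpf was at 43.6 and 89.9 TPM, and 65.9% of its exonic bases overlap Ccdc38 on the opposite strand. Snrpd3 was at 85.0 TPM in pup 1 against 18.4 in pup 3, a log2 ratio of -2.14. The processed pseudogene Snrpert, a near copy of Snrpe, was listed at 79.7 and 86.1 TPM, so the split of reads between it and Snrpe is uncertain.

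Of the particle-specific proteins, the U2 protein Snrpa1 was at 182 and 105 TPM and its partner Snrpb2 at 44.3 and 93.1 TPM. The U1 protein Snrpc was at 124 and 97.6 TPM, a log2 ratio of -0.34 that turned to 0.48 on the CPM scale, while Snrpa, given above, was nearly missing from pup 3. By gene TPM, the 2 genes of the U2 pair therefore differed in opposite directions between pups. In coding transcripts alone, Snrpa1 was at 64.9 and 67.3 TPM and Snrpb2 at 30.4 and 46.3 TPM.

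Between the pups, members as a whole differed about as often as other genes. At a mean of 50 TPM or more, 12 of 29 members (41.4%) were 2-fold or more apart, against 43.0% of all 2810 protein-coding genes at that level. By class these were 6 of 13 hnRNP, 2 of 6 SR and 4 of 10 snRNP genes. Toward pup 1, the members were 5 hnRNP, 2 SR and 1 snRNP gene, 8 of 29 against 19.6% of all genes. Toward pup 3 they were 1 hnRNP, no SR and 3 snRNP genes, 4 of 29 against 23.3%. The median log2 ratio was -0.33 over hnRNP genes, -0.57 over SR genes and 0.18 over snRNP genes, beside -0.49 over the 11415 protein-coding genes above 0 in either pup. Higher in pup 1 were 13 of 20 hnRNP, 6 of 11 SR and 4 of 11 snRNP genes, beside 64.1% of those protein-coding genes. The hnRNP count was near this share, but the background was not matched to the members by level. Over all protein-coding genes, 3743 were found in pup 1 alone and 905 in pup 3 alone. On CPM scaled with TMM factors, 11 of the 12 members stayed 2-fold apart in the same direction. Snrpb2 did not, at a log2 ratio of 0.82 there against 1.06 on TPM.

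**Figure D2:**
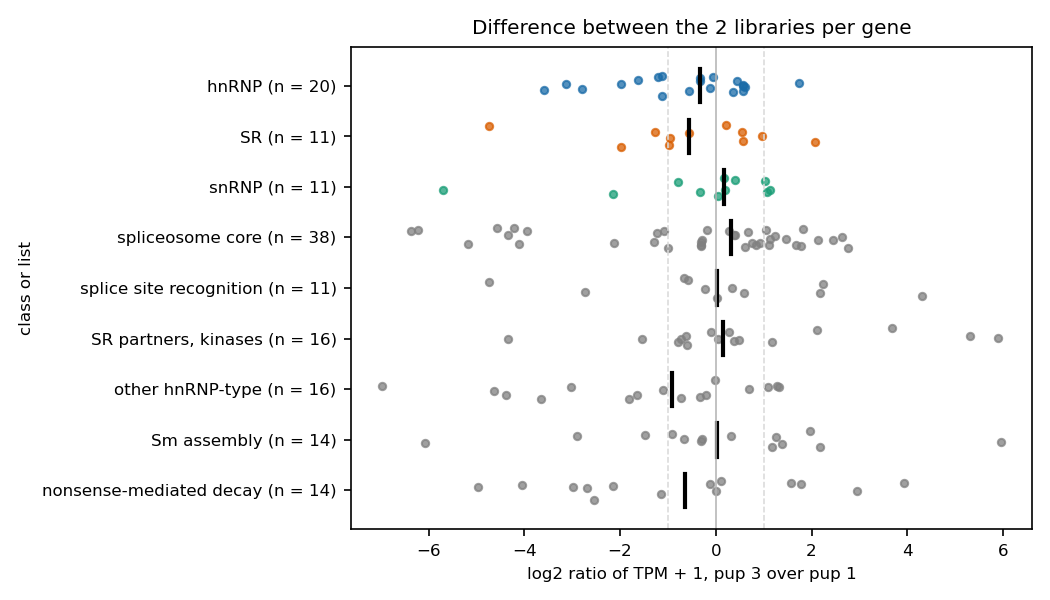
Log2 ratio of TPM + 1 in pup 3 over pup 1 for each gene (points, spread vertically at random for visibility) in the 3 classes and in 6 lists of related genes, with the median as a black bar and dashed lines at 2-fold. Genes at 0 TPM in both pups are left out, and the medians run from -0.92 for other hnRNP-type proteins to 0.33 for the spliceosome core.

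Part of splicing factor RNA was assigned to transcripts that do not encode the protein, and the size of that part depended on the scale. Non-coding and decay transcripts, here all those whose M21 biotype is not protein_coding, held 18.0% of the members' summed TPM in pup 1 and 17.5% in pup 3 (17.7 ± 0.335%, SD, n = 2). Over all protein-coding genes the share was 9.14% and 10.5%. In estimated reads the members' share was 10.4% and 10.7%, beside 5.24% and 6.30% over all protein-coding genes. Counting only transcripts with 100 or more private bases, it was 8.84% and 8.60% of TPM, beside 4.04% and 4.33%. By TPM over all such transcripts, the SR class stood highest at 30.3% in pup 1 and 46.6% in pup 3 (38.4 ± 11.5%). The hnRNP class followed at 19.0% and 18.5% (18.7 ± 0.300%), and the snRNP class stood lowest at 7.30% and 4.17% (5.74 ± 2.21%). The order SR, hnRNP, snRNP was the same in both pups.

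Retained-intron transcripts made up most of this share among hnRNP genes, at 13.0% and 10.6% of the class. Among SR genes they held 19.4% and 19.7%, and processed transcripts, which have no open reading frame annotated, held 6.24% in pup 1 and 20.1% in pup 3. The labels describe total RNA-seq, and whether reads on retained-intron models came from unspliced precursor RNA was not tested. Transcripts annotated as decay targets held 3.18% and 3.72% among hnRNP genes, 4.65% and 6.85% among SR genes and 5.07% and 1.61% among snRNP genes, beside 1.98% and 2.52% over all protein-coding genes. Counted in estimated reads, which are not divided by transcript length, shares were lower for hnRNP and SR genes but higher for snRNP genes. They were 7.41% and 7.36% for hnRNP, 21.3% and 24.3% for SR and 9.64% and 7.60% for snRNP genes, beside 5.24% and 6.30% over all protein-coding genes, and on this scale the snRNP class was above the hnRNP class.

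**Figure D3:**
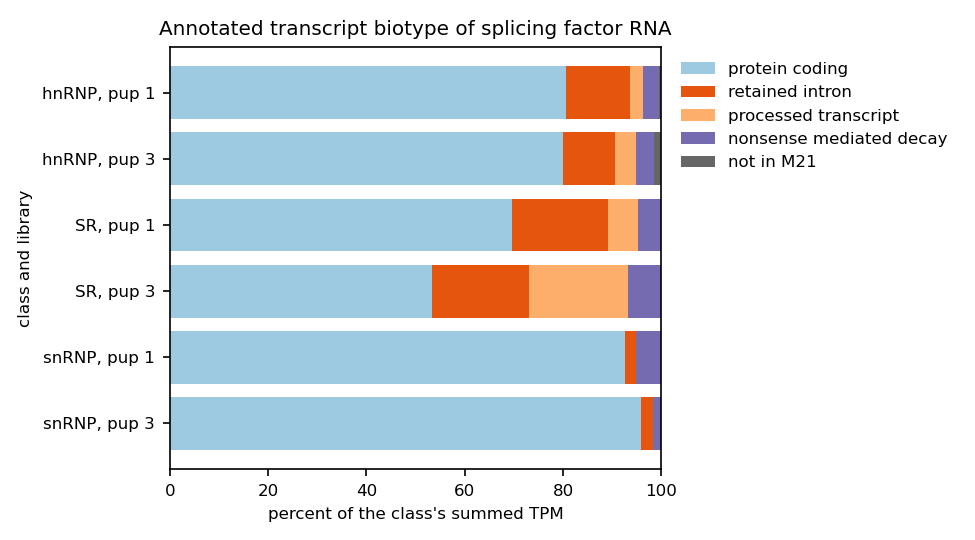
Percent of each class's summed TPM (horizontal axis) by annotated transcript biotype, with 1 bar for each class and pup. The protein-coding part is smallest for SR genes (69.7% and 53.4%) and largest for snRNP genes (92.7% and 95.8%).

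These class shares rested on few genes. Hnrnpk alone held 70.0% of the hnRNP non-coding TPM in pup 1 and 49.7% in pup 3, and without it the hnRNP share was 8.93% and 12.5%. Srsf3 held 41.2% and 46.6% of the SR non-coding TPM, and without it the SR share was 22.7% and 38.6%. Srsf10 held 17.4% and 40.3%, and without it the SR share was 27.5% and 34.3%. Snrpa1 held 80.9% of the snRNP non-coding TPM in pup 1 and 38.8% in pup 3. Without Snrpa1 the snRNP share was 1.54% and 2.68%. Snrpb2 held 9.61% in pup 1 and 48.4% in pup 3, the most there, and without it the snRNP share was 6.75% and 2.24%.

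Gene by gene, 35 members were at 10 TPM or more in both pups, and 23 of these had a non-coding or decay transcript in the tables. More than 10% of TPM lay in such transcripts in both pups for 9 members, being 4 hnRNP, 3 SR and 2 snRNP genes. That is 9 of 35, against 16.3% of all protein-coding genes at that level, and 9 of 23, against 25.7% of genes that had such a transcript. A further 3 of the 23 members passed 10% only in pup 1, against 11.8% of genes with such a transcript, and 5 only in pup 3, against 13.3%. The last 6 passed it in neither. The SR class, highest by pooled share, included Srsf6 with 0% in both pups, and Srsf7 has no such transcript in the tables.

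**Figure D4:**
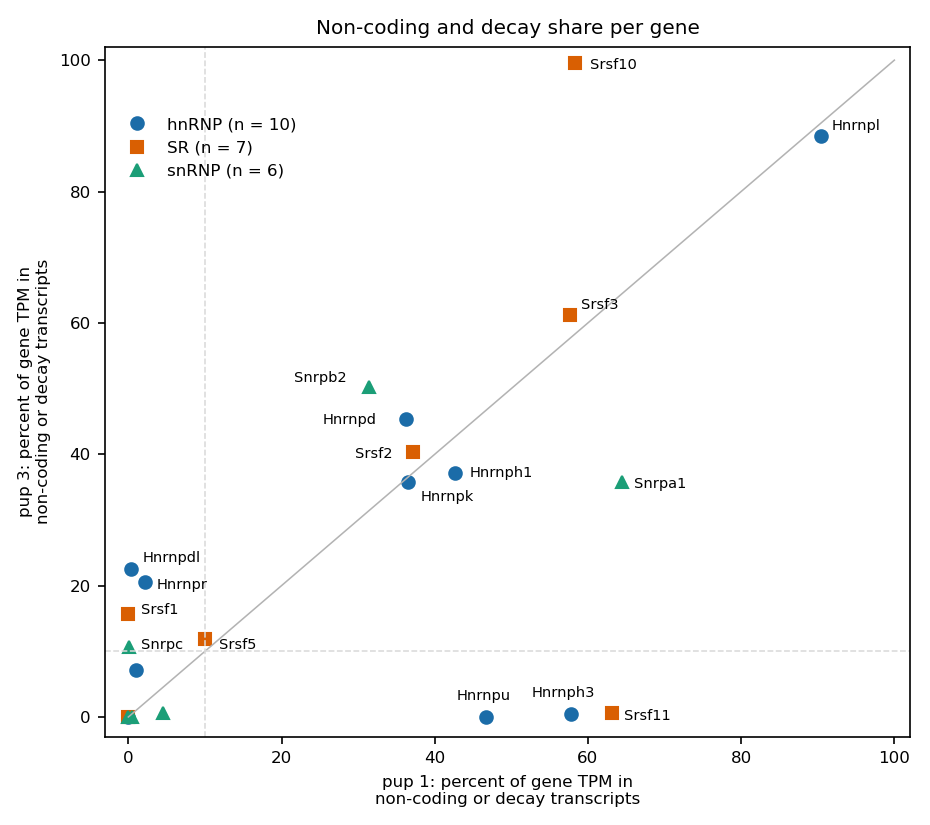
Percent of gene TPM in non-coding or decay transcripts in pup 1 (horizontal) and pup 3 (vertical) for the 23 members at 10 TPM or more in both pups that have such a transcript, with dashed lines at 10% and a grey line of equality. Hnrnpl, Srsf3, Hnrnpk, Hnrnph1 and Srsf2 lie near equality, while Srsf11, Hnrnph3 and Hnrnpu are high in pup 1 alone.

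Hnrnpl had the highest share in pup 1, 90.4%, and 88.4% in pup 3. The transcript was Hnrnpl-210, the retained-intron model printed above, at 34.6 and 27.0 TPM, from 526 and 358 reads. All its coding transcripts together reached 3.67 and 3.55 TPM. Hnrnpl-210 is 672 bases long with 121 private bases, so most of its length is shared with coding mRNA.

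Srsf3 had 57.7% and 61.2% of its TPM in such transcripts. The leading one in both pups was the retained-intron model Srsf3-205 at 129 and 155 TPM, next to the coding Srsf3-202 at 124 and 132 TPM. The decay model Srsf3-201, whose extra exon carries the stop codon printed above, was at 17.5 and 24.9 TPM, or 5.97% and 7.34% of the gene. Inclusion of that exon is a known route by which Srsf3 protein lowers its own mRNA. Srsf3-205 is 910 bases long in the tables and 2110 in M21, so its structure here may not be the one that was counted.

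Srsf10 stood at 58.3% in pup 1 and 99.6% in pup 3. Its leading transcript in both pups was the processed transcript Srsf10-207, at 67.1 and 136 TPM, and 452 of its 717 bases are private. Its coding transcripts summed to 51.2 TPM in pup 1 against 0.800 in pup 3. A second processed transcript, Srsf10-209, was at 0 TPM in pup 1 against 39.5 in pup 3.

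Srsf2 had 37.2% and 40.4%, but from different transcripts. The retained-intron model Srsf2-203 was at 44.5 TPM in pup 1 against 5.22 in pup 3. The decay model Srsf2-204 was at 37.5 and 31.6 TPM, with no private base and no private junction, so no exonic letter separates it from the coding mRNAs. Srsf5 was close to the 10% line, with 9.95% in pup 1 and 11.9% in pup 3.

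Hnrnpk had 36.5% and 35.8%, spread over several models. Hnrnpk-217 was at 243 and 173 TPM, and Hnrnpk-215 at 174 and 65.9 TPM. Their private parts are the 78 and 33 bases printed above, out of 874 and 522 bases. The coding transcript Hnrnpk-201 led in both pups at 640.2 and 287 TPM. Hnrnph1 had 42.6% and 37.2%. Its Hnrnph1-218, at 45.8 and 89.5 TPM, differs from the coding models by the 30 bases shown and 1 junction.

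Hnrnpd had 36.3% and 45.3%. The decay model Hnrnpd-208 led in pup 1, at 19.7 TPM there and 19.1 TPM in pup 3, while the coding transcripts summed to 17.1 and 4.88 TPM. The leading Hnrnpd transcript in pup 3, at 40.7 TPM, has no entry in M21 and so no biotype here. AUF1, its product, promotes decay of mRNAs with AU-rich elements.

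In the U2 pair, Snrpa1 had 64.4% in pup 1 and 35.8% in pup 3. The decay model Snrpa1-201, with the TAA stop printed above, was at 96.2 and 37.2 TPM. The coding Snrpa1-206 was at 64.9 and 67.3 TPM, so coding levels were nearly equal while the gene totals were 182 and 105 TPM. Snrpb2 had 31.4% and 50.3%, from the retained-intron model Snrpb2-203 at 13.5 and 44.0 TPM. Its coding transcript was at 30.4 and 46.3 TPM.

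Members with a high share in one pup only included Hnrnph3, Srsf11 and Hnrnpu in pup 1. Hnrnph3 had 57.8% in pup 1 and 0.517% in pup 3, since the decay model Hnrnph3-204 was at 54.7 and 0.0300 TPM. Srsf11 had 63.1% and 0.542%, and 5 of its non-coding models were between 5.60 and 17.2 TPM in pup 1 and at 0 in pup 3. Hnrnpu had 46.7% and 0%. In pup 3, Hnrnpdl (22.6% against 0.287%), Hnrnpr (20.5% against 2.12%), Srsf1 (15.7% against 0%) and Snrpc (10.7% against 0.0728%) passed 10%.

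How firmly a read can be placed on these transcripts differed. Of 31 non-coding or decay transcripts that reached 10 TPM in a pup, 20 had 100 or more private bases and held 47.2% of their summed TPM in pup 1 and 48.4% in pup 3. Another 4 had fewer and held 35.2% and 35.7%. The last 7 had no private base and held 17.6% and 15.9%. Of these 7, Hnrnpr-206 and Srsf2-204 also had no private junction. When only transcripts with 100 or more private bases were counted, the shares were 5.98% and 3.54% for hnRNP, 27.5% and 38.2% for SR and 2.39% and 2.57% for snRNP genes, beside 4.04% and 4.33% over all protein-coding genes. By that count 5 of 35 members passed 10% in both pups, against 6.87% of all protein-coding genes at 10 TPM or more in both. Private bases were read from M21, in which Srsf3-201, Srsf3-204 and Srsf3-205 have other lengths than those counted. For Srsf3-205, at 129 and 155 TPM, M21 gives 1257 private bases against a counted length of 910. The SR shares by this count therefore rest partly on models whose counted structure may differ.

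**Figure D5:**
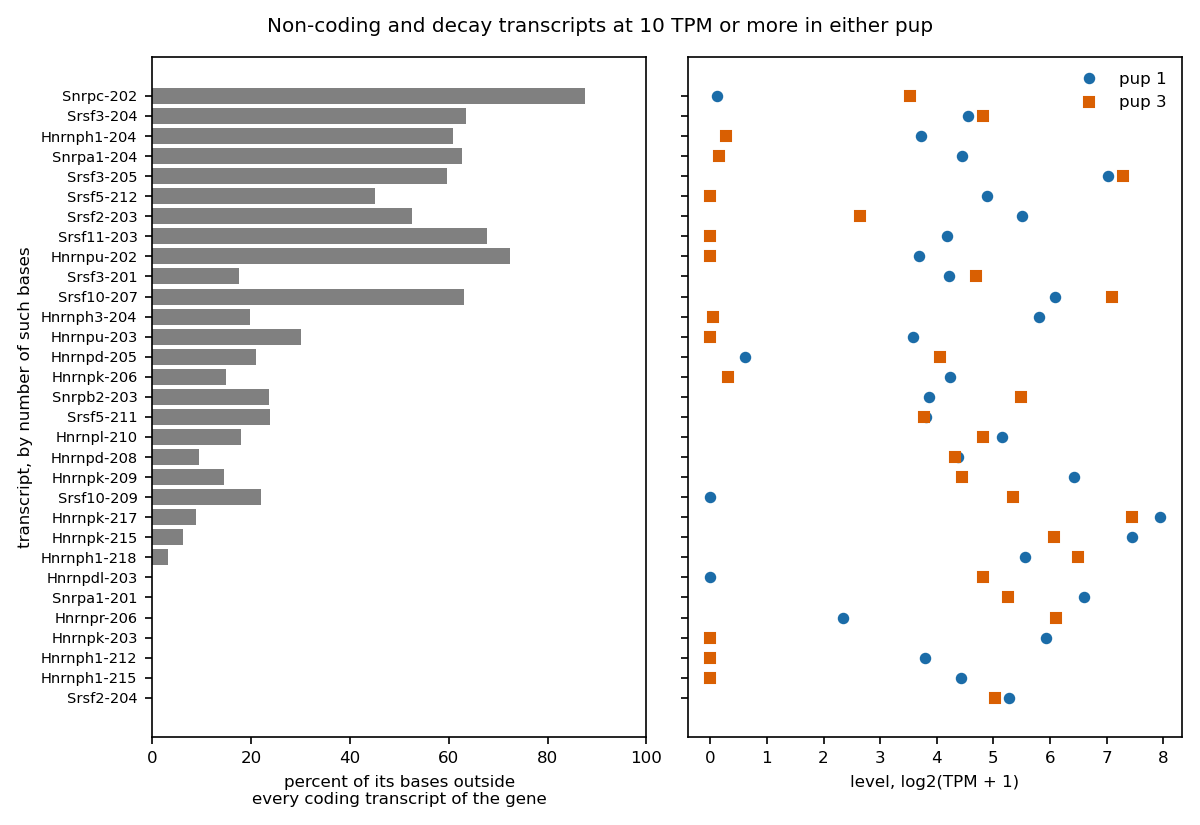
For the 31 non-coding or decay transcripts that reached 10 TPM in a pup, the left panel gives the percent of M21 bases outside every coding transcript of the gene and the right panel the level as log2(TPM + 1) in pup 1 (blue circles) and pup 3 (orange squares). The high Hnrnpk-217, Hnrnpk-215 and Snrpa1-201 have few or no such bases, whereas Srsf3-205 and Srsf10-207 have many.

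The transcript with the highest TPM was the same in both pups for 19 of 29 members at 10 TPM or more with several transcripts, against 66.1% of all such genes. By class these were 9 of 16 hnRNP, 5 of 7 SR and 5 of 6 snRNP genes. A non-coding transcript led in both pups for Hnrnpl, Srsf3 and Srsf10, and in pup 1 alone for Hnrnpd, Hnrnph3 and Snrpa1. By reads, which are not divided by length, the coding Srsf3-202 led instead in both pups, with 8127 and 7536 reads against 2785 and 2919 for Srsf3-205. In pup 1 the coding Srsf10-205 also led by reads, with 2495 against 1101 for Srsf10-207, while the other leads were the same by reads. Among coding changes of lead, Hnrnpa2b1-202 led in pup 1 and Hnrnpa2b1-203 in pup 3, and Hnrnpf-201, at 149.6 TPM in pup 1, was at 0 in pup 3, where all Hnrnpf TPM lay in Hnrnpf-210.

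Genes that work with the members were also examined, in lists not filtered by level. As given above, 24.8% of all protein-coding genes were found in both pups, and 70.1% of those at a mean of 10 TPM or more. Of 39 other U snRNP and spliceosome core genes, 28 were found in both pups, with a median of 49.1 TPM. The highest was Snrpn, whose product can take the place of Snrpb in the Sm ring of neurons, at 1060.1 and 854 TPM, above Snrpb in both pups. Lsm3, of the U6 ring, was at 118 and 379 TPM. Splice site recognition genes were found in both pups for 10 of 11 (median 58.0 TPM), led by Puf60 at 346 and 229 TPM. U2af1, which reads the AG at the end of introns, was at 60.4 and 291 TPM, and U2af1l4 at 85.6 and 108 TPM.

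For partners and kinases of SR proteins, 11 of 16 were found in both pups (median 62.4 TPM). Rnps1, part of the complex left at exon junctions, was at 304 and 197 TPM, Srrm2 at 168 and 220.4 TPM and Tra2b at 203 and 117 TPM. Other hnRNP-type proteins were found in both pups for 11 of 16 (median 41.5 TPM). Their median log2 ratio was -0.92, with 12 of 16 higher in pup 1. The values over protein-coding genes above 0 in either pup, not matched by level, were -0.49 and 64.1%. Rbmx was at 285 and 90.4 TPM, Syncrip at 103 and 222 TPM and Pcbp2 at 56.1 and 141 TPM.

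Of 15 genes that assemble Sm rings, 11 were found in both pups (median 45.0 TPM), among them Clns1a at 144 and 328 TPM, Strap at 36.7 and 170.3 TPM and Gemin7 at 128 and 67.0 TPM. Nonsense-mediated decay genes were the lowest list, at a median of 10.1 TPM, and 8 of 15 were found in both pups. Eif4a3, the anchor of the exon junction complex, was at 228 and 246 TPM, Magoh, of the same complex, at 54.3 and 163 TPM and Upf3a at 14.1 and 117 TPM.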

How the data were processed

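RNA of 2 newborn forebrains was measured as total RNA-seq with a Smart-seq protocol after mirVana extraction, per the labels. The authors deposited, per gene and per transcript, expected counts (estimated reads, with shared reads divided between features) and TPM with posterior means and credibility bounds, per the file headers. Assembly mm10 and annotation M4 are named in the labels. For the aligner, the counter, versions and strand setting, nothing is stated in the sources used here.

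Symbols, biotypes, exons and sequences came from GENCODE M21 on the same assembly, matched by identifier. Of 247 member transcripts, 1 had no M21 entry and was counted in totals only. Among the 31 non-coding transcripts at 10 TPM or more, 4 had another length in M21. Members and lists were chosen with earlier results of these data known. Levels are deposited TPM, differences are log2(TPM + 1), and shares are sums of transcript TPM. Lengths, overlaps and private bases refer to M21 exons except where the tables are named. TMM factors (0.919 and 1.09) were computed by edgeR 4.0.16 from expected counts after rounding, over 11993 genes. Share and ratio steps were tested on simulated data. Genes named with full values are the 5 highest of each class, the 3 largest and 3 smallest log2 ratios at a mean of 10 TPM or more, those at 0 reads, the 8 highest non-coding shares, those led by a non-coding transcript, and the 3 highest of each list, of which 1 is not reported here. Other members were given by level so that all 42 are accounted for. Alternatives covered the pseudocount, level and detection limits, spike-in and mitochondrial rescaling, reads in place of TPM, posterior means, stricter transcript sets and each pup alone. Tables and plots were made with numpy 2.4.6, pandas 2.3.3 and matplotlib 3.10.9 under Python 3.11.15, with R 4.3.3 for edgeR.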

Additional observations from a re-analysis of the deposited data

How the results depend on the processing

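The direction between pups turned for 3 of 42 members on CPM with TMM factors, Srsf10 (-0.97), Snrpc (0.48) and Hnrnpd (-0.14), and for Hnrnph1 (0.01) after rescaling without spike-ins and mitochondrial genes. None of these was 2-fold apart on TPM, and 89 of 136 class values stayed within the limits set for them. With pup 1 or pup 3 alone, median levels ranged from 79.4 to 99.4 TPM (hnRNP), 60.6 to 72.2 TPM (SR) and 90.6 to 113 TPM (all members). Median log2 ratios were, at a pseudocount of 0.1, -0.69 (SR) and -0.23 (all members); at 10, -0.29, -0.21, 0.17 and -0.16 (hnRNP, SR, snRNP, all members). Over members at a mean of 10 TPM or more they were -0.32 (hnRNP), -0.95 (SR) and -0.13 (all). After rescaling without spike-ins and mitochondrial genes they were -0.27, -0.53, 0.24 and -0.16, and on CPM with TMM factors -0.31, -0.59, 0.25 and -0.24 (hnRNP, SR, snRNP, all). Members 2-fold apart were 4 SR genes at a mean of 10 TPM or more and 2 snRNP genes at a pseudocount of 10.

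The mean non-coding share was 7.39% (hnRNP), 22.8% (SR), 8.62% (snRNP) and 10.5% (all members) on expected counts, and 3.45%, 5.75%, 3.34% and 3.66% for decay biotypes only. The next 2 settings were chosen after seeing the data. Requiring 100 or more private bases gave 4.76% (hnRNP), 2.48% (snRNP) and 8.72% (all), and leaving out the member with most non-coding TPM gave 10.7% (hnRNP), 2.11% (snRNP) and 14.1% (all). The median of the members' shares was 0% (hnRNP), 7.86% (SR), 0.265% (snRNP) and 0.132% (all). These medians include 15 of 42 members with no such transcript in the tables, 9 hnRNP, 2 SR and 4 snRNP genes. High-share members numbered 2 (hnRNP), 1 (snRNP) and 5 (all) with 100 or more private bases, and 1 (snRNP) at 50 TPM or more in both pups, where shared leading transcripts numbered 3 (SR), 3 (snRNP) and 12 (all). No paired analysis was possible because there is 1 group. Precision is limited by having 1 library per pup of 13 pg.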
